A study of Mus musculus with 6 samples.

Results

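The colony-stimulating factors (CSFs) are secreted growth factors of the myeloid lineage, and the 8 genes described here are the 3 ligand genes Csf1, Csf2 and Csf3 and the 5 receptor chain genes Csf1r, Csf2ra, Csf2rb, Csf2rb2 and Csf3r. They were taken by symbol from 22180 genes tested, and 9 probe sets of 41345 carried one of these symbols alone. Csf2 had 2 probe sets and the other genes had 1 each. The main probe set of Csf2 was chosen by its mean log2 value over all 6 arrays, 7.37 against 5.09 for the other, and the difference between the groups played no part in that choice. The cells were Raw 264.7, a mouse line of monocytes and macrophages, starved and then held in medium with 2% serum. The 3 IL-33 arrays came from cells given 50 ng/ml of IL-33, a relative of IL-1, and the 3 PBS arrays from cells given PBS without it. All 6 came from this 1 line, and no source used here gives the length of treatment. The sample titles set the groups, but the names of the arrays contradict them: those titled PBS carry the letters IL and those titled IL-33 carry the letter P. Every direction below would turn if the titles were wrong.

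CSF-1 (M-CSF, from Csf1) keeps macrophages alive through the receptor tyrosine kinase encoded by Csf1r, and it drives macrophage and osteoclast precursors to divide. GM-CSF (from Csf2) binds the alpha chain from Csf2ra, and the beta common chain from Csf2rb then joins and signals through JAK2 and STAT5. Mice have a close copy of the beta common gene, Csf2rb2, whose product pairs with the IL-3 receptor alpha chain. G-CSF (from Csf3) acts through the receptor from Csf3r, which is best known on neutrophils and their precursors. Macrophages make both GM-CSF and G-CSF when they are activated.

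Csf2 rose and its product's receptor chains did not rise with it. In the arrays labelled IL-33, Csf2 was 2.23-fold higher, the beta chain copy Csf2rb2 was 1.69-fold lower and the G-CSF receptor gene Csf3r was 1.55-fold higher than in the PBS arrays. These 3 of the 8 genes passed (limma, p adjusted by Benjamini-Hochberg over all genes, threshold 0.05), where 0.591% of all genes tested passed. Of the 3, 2 were higher, as were 0.275% of all genes, and 1 was lower, as were 0.316%. Leaving out 1 array left 0 to 2 of the 8 genes and 15 to 83 genes in all, where 131 had passed, and over all probe sets none of the 8 passed. The groups stood apart, with no overlap of the 3 values of one with the 3 of the other, for 5 of the 8 genes, against 20.3% of all genes. The CSF-1 pair, Csf1 and Csf1r, and the GM-CSF receptor alpha chain gene Csf2ra overlapped between the groups. The median log2 difference was 0.0057 over the 8 genes and -0.0051 over all genes, and the median size of a difference, sign left out, was 0.40 and 0.073. The members were named with earlier results of these arrays known, so these shares describe them and are no independent evidence.

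**Figure D1:**
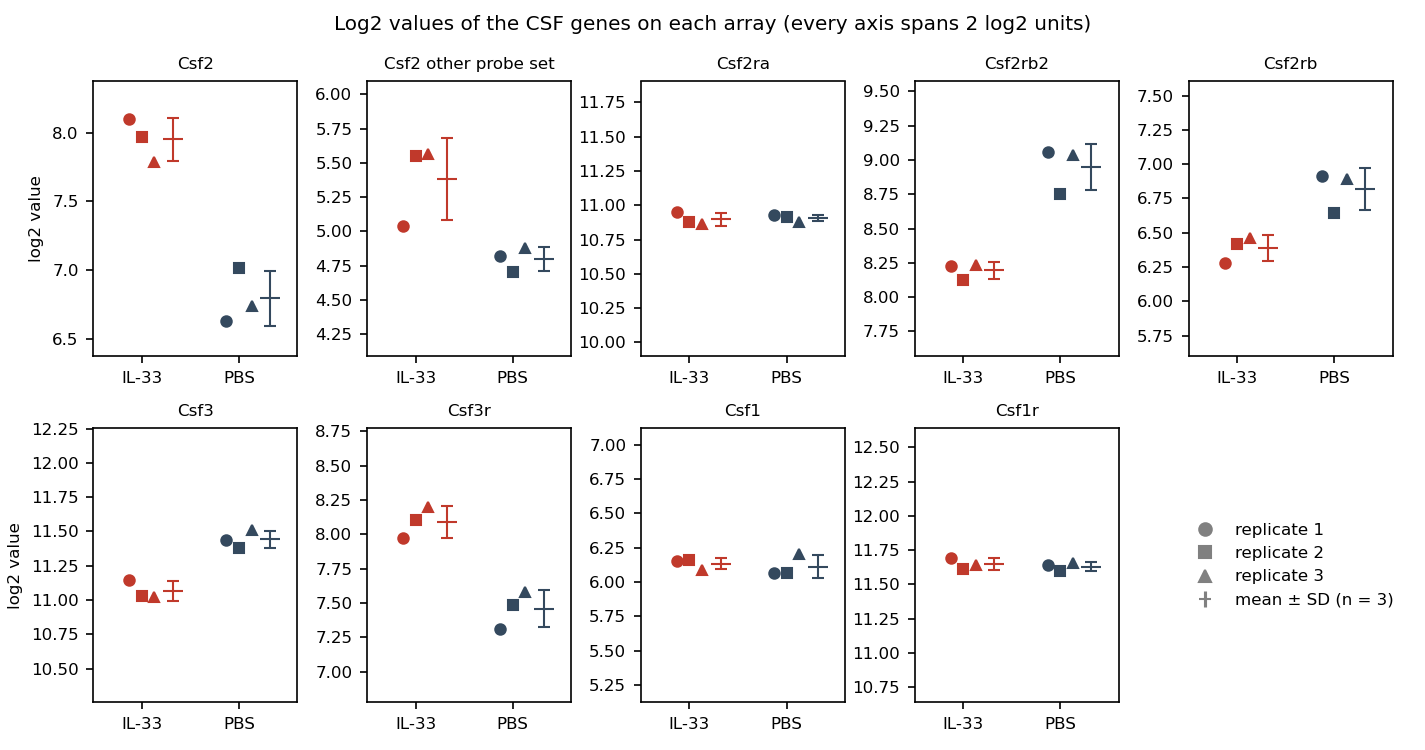
Log2 values (vertical axes, each spanning 2 log2 units) of the CSF genes on each array, IL-33 left and PBS right, with marker shapes for the replicate numbers and bars for the mean ± SD (n = 3 each). IL-33 and PBS points are apart for Csf2, both probe sets, Csf2rb2, Csf2rb, Csf3 and Csf3r and mixed for Csf2ra, Csf1 and Csf1r; levels of different panels are not comparable.

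The start-site regions are shown for the 3 genes that passed. Csf3 and Csf2rb, whose groups also stood apart, did not pass and are not shown. RefSeq windows of assembly GRCm38.p6, from 250 bases before to 50 after the gene start, were held for 5 of the 8 genes. They are given 5′ to 3′ on the strand of the gene, for Csf2 at chr11:54249850-54250149 (minus strand), for Csf2rb2 at chr15:78305672-78305971 (minus strand) and for Csf3r at chr4:126024409-126024708 (plus strand). Capitals mark matches, on either strand, to 5 short motifs: NF-kB (GGNNNTTCC), AP-1 (TGANTCA), STAT (TTCNNNGAA), the PU box of the macrophage factor PU.1 (GAGGAA) and the interferon-stimulated response element ISRE (GAAANNGAA).
Csf2: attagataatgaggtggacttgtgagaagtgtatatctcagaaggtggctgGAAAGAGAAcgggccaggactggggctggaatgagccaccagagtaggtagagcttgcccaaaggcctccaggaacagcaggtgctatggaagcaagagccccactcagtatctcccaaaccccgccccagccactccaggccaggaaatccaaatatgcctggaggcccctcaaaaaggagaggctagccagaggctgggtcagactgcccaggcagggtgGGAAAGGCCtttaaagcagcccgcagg
Csf2rb2: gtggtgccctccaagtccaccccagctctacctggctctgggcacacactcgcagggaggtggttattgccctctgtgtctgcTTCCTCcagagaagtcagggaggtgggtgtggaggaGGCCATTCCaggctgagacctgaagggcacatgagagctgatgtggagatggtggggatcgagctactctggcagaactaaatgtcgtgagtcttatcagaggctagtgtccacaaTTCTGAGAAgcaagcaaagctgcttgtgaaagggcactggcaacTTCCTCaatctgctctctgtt
Csf3r: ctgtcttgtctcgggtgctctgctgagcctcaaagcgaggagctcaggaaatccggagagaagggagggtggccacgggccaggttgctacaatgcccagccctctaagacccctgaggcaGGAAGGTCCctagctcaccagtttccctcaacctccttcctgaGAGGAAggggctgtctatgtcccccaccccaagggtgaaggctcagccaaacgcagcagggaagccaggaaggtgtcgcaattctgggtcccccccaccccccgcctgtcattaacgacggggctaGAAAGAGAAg

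The Csf2 window held 1 NF-kB match that begins 23 bases after the start and 1 ISRE match at -199. The Csf2rb2 window held 1 STAT match at -15, 1 NF-kB match at -131 and 2 PU box matches at -167 and 29. The Csf3r window held 1 NF-kB match at -129, 1 PU box match at -86 and 1 ISRE match at 40. Of the 2 other genes with a window, neither of which passed, Csf1 held 1 NF-kB match at -154 and Csf2ra 2 PU box matches at -14 and -8. The matches did not overlap each other, and no window of the 5 held the AP-1 motif. Of the 32851 windows in the same table, 18.5% held the NF-kB motif, 7.81% the AP-1 motif, 8.30% the STAT motif, 28.3% the PU box and 8.56% the ISRE. These letters say nothing of binding, and transcripts that begin elsewhere were not searched.

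Csf2 encodes GM-CSF. Its main probe set read 8.10, 7.97 and 7.79 (log2) in IL-33 replicates 1, 2 and 3, against 6.63, 7.02 and 6.74 in PBS replicates 1, 2 and 3. Every IL-33 array was above every PBS array, with 0.77 log2 units between the nearest 2. The group means were 7.95 ± 0.16 in IL-33 arrays and 6.79 ± 0.20 in PBS arrays (log2, SD, n = 3 each), a log2 difference of 1.16 ± 0.12 (SE) or 2.23-fold, with a 95% interval of 1.83-fold to 2.72-fold and an adjusted p of 0.0160 (limma). Among the 61 genes that rose, Csf2 had the 5th largest rise. In a bulk sample, more RNA per cell and more cells that make it cannot be told apart. The call held when PBS replicate 2 or IL-33 replicate 1 was left out (limma, adjusted p 0.0229 and 0.0421) and was lost without PBS replicate 1, PBS replicate 3, IL-33 replicate 2 or IL-33 replicate 3, with 0.0754, 0.0876, 0.0909 and 0.0685. It was also lost over all probe sets, with 0.0862.

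The other Csf2 probe set moved the same way by less. It had a mean value of 5.09 (log2) over all arrays, below the array medians of 5.31 to 5.36. It read 5.04, 5.55 and 5.57 (log2) in IL-33 replicates 1, 2 and 3, against 4.82, 4.71 and 4.88 in PBS replicates 1, 2 and 3. The groups did not overlap, and IL-33 replicate 1, the highest IL-33 array on the main probe set, was the lowest IL-33 array here. The log2 difference was 0.58 ± 0.14 (SE), with a 95% interval of 0.24 to 0.92, and it did not pass, with an adjusted p of 0.163 (limma, over 23521 probe sets with 1 symbol). In that same fit the main probe set had an adjusted p of 0.0172 (limma). Without IL-33 replicate 1 the difference was 0.76 and passed, with an adjusted p of 0.0253 (limma). Within an array, the main probe set stood above the other by 2.57 ± 0.44 in IL-33 arrays and 1.99 ± 0.28 in PBS arrays (log2, SD, n = 3 each). That difference of 0.58 between groups had an exact 2-sided permutation p of 0.2, where 3 against 3 arrays can give no less than 0.1.

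Csf2ra, the ligand-specific alpha chain of the GM-CSF receptor, did not pass and had a narrow interval around 0. It read 10.95, 10.88 and 10.86 (log2) in IL-33 replicates 1, 2 and 3, against 10.93, 10.91 and 10.88 in PBS replicates 1, 2 and 3. The values of the groups were interleaved. The log2 difference was -0.0089 ± 0.051 (SE), with a 95% interval of -0.13 to 0.11 and an adjusted p of 0.964 (limma), so a change of more than about 1.09-fold lower or 1.08-fold higher lay outside the interval.

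Csf2rb2, the copy of the beta chain that serves the mouse IL-3 receptor, fell. It read 8.23, 8.12 and 8.24 (log2) in IL-33 replicates 1, 2 and 3, against 9.06, 8.76 and 9.03 in PBS replicates 1, 2 and 3. Every IL-33 array was below every PBS array, with 0.52 log2 units between the nearest 2. The group means were 8.20 ± 0.06 in IL-33 arrays and 8.95 ± 0.17 in PBS arrays (log2, SD, n = 3 each), and the level was 1.69-fold lower, with a 95% interval of 1.45-fold to 1.95-fold and an adjusted p of 0.0246 (limma). It ranked 27th by size among the 70 genes that fell. The call held without PBS replicate 2 (limma, adjusted p 0.0205) and was lost without each of the other 5 arrays in turn, with 0.0679 to 0.127. Over all probe sets the adjusted p was 0.120 (limma).

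Csf2rb, the beta common chain shared by the GM-CSF, IL-3 and IL-5 receptors, lay on the same side but did not pass. It read 6.28, 6.42 and 6.46 (log2) in IL-33 replicates 1, 2 and 3, against 6.92, 6.64 and 6.89 in PBS replicates 1, 2 and 3. All IL-33 values lay below all PBS values, with 0.18 log2 units between the nearest 2. The log2 difference was -0.43 ± 0.09 (SE), with a 95% interval of -0.64 to -0.22 and an adjusted p of 0.108 (limma). It passed when genes with a mean value below the median were left out, with an adjusted p of 0.0286, and with a prior variance trended on intensity and robust to outliers, with 0.0205 (limma), settings in which 6.85% and 4.51% of genes passed. Csf2rb and Csf2rb2 are near-identical copies, and how far the probes of one also bind the transcript of the other was not tested.

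For G-CSF the ligand gene and the receptor gene lay on opposite sides. Csf3, the ligand, read 11.15, 11.03 and 11.02 (log2) in IL-33 replicates 1, 2 and 3, against 11.44, 11.38 and 11.51 in PBS replicates 1, 2 and 3. The groups did not overlap, with 0.23 log2 units between the nearest 2. The log2 difference was -0.38 ± 0.06 (SE), with a 95% interval of -0.52 to -0.23, and it missed the threshold with an adjusted p of 0.0593 (limma). It passed in 5 of 9 other settings and in none of the 6 fits without an array, over a range of adjusted p of 0.000383 to 0.239 (limma).

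Csf3r, the G-CSF receptor, rose. It read 7.97, 8.10 and 8.20 (log2) in IL-33 replicates 1, 2 and 3, against 7.31, 7.49 and 7.58 in PBS replicates 1, 2 and 3. Every IL-33 array was above every PBS array, with 0.39 log2 units between the nearest 2. The group means were 8.09 ± 0.12 in IL-33 arrays and 7.46 ± 0.14 in PBS arrays (log2, SD, n = 3 each), a 1.55-fold rise with a 95% interval of 1.34-fold to 1.80-fold and an adjusted p of 0.0408 (limma). It ranked 25th by size among the 61 genes that rose. The call was lost whichever array was left out, with adjusted p of 0.0602 to 0.183 (limma), and over all probe sets, with 0.169.

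Csf1 and Csf1r, the ligand and receptor of the CSF-1 pair, did not pass and also had narrow intervals around 0. Csf1 read 6.15, 6.16 and 6.09 (log2) in IL-33 replicates 1, 2 and 3, against 6.07, 6.06 and 6.21 in PBS replicates 1, 2 and 3. Csf1r read 11.70, 11.61 and 11.64 (log2) in IL-33 replicates 1, 2 and 3, against 11.64, 11.60 and 11.66 in PBS replicates 1, 2 and 3. The groups overlapped for both genes. The log2 difference was 0.02 ± 0.06 (SE) for Csf1, with a 95% interval of -0.12 to 0.16 and an adjusted p of 0.917 (limma). For Csf1r it was 0.02 ± 0.05 (SE), with a 95% interval of -0.10 to 0.14 and an adjusted p of 0.906 (limma).

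**Figure D2:**
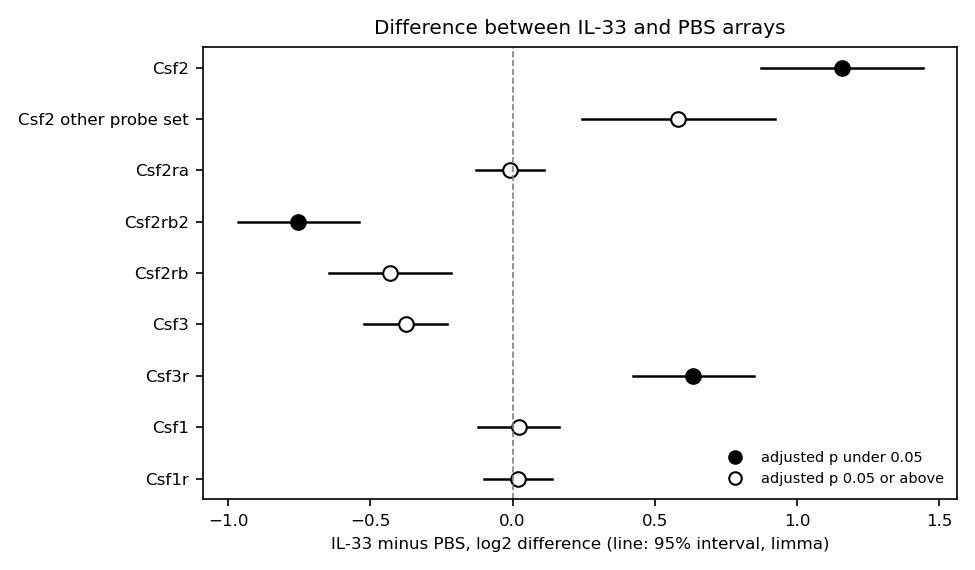
Log2 difference, IL-33 minus PBS (horizontal axis), of each CSF gene with its 95% interval from limma (lines); filled circles passed at an adjusted p under 0.05. The intervals of Csf2ra, Csf1 and Csf1r span 0, and those of both Csf2 probe sets, Csf2rb2, Csf2rb, Csf3 and Csf3r do not.

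**Figure D3:**
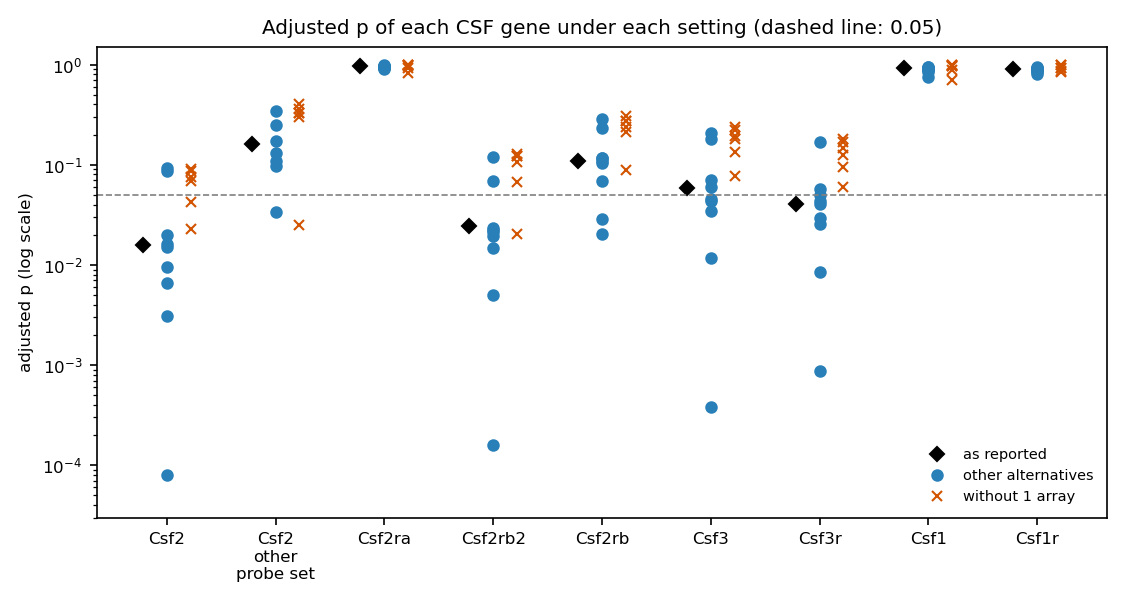
Adjusted p (vertical log axis, dashed line at 0.05) of each CSF gene as reported (diamonds), under the other alternatives (circles) and with 1 array left out (crosses). Csf2, Csf2rb2 and Csf3r have crosses above the line, all 6 of them for Csf3r, while Csf2ra, Csf1 and Csf1r stay at 0.698 or above in every setting run.

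Some genes that work with these receptors passed, and none moved as far as Csf2 or Csf2rb2. The 9 lists of pathway genes held 120 measured genes of 128 listed, and the other 8 were not analysed here. Of the 120 genes 5 passed (1 higher, 4 lower), or 4.17%, against 0.591% of all genes. These 2 shares were not matched for level. The median mean values of the 9 lists ran from 5.46 to 10.2 (log2), where the array medians were 5.31 to 5.36. The lists were drawn up with earlier results known, and their median log2 difference was -0.014 against -0.0051 over all genes. None of 12 partner chains and related growth factors passed, a list with IL-34 (the other ligand of the CSF-1 receptor), IL-3, IL-5 and their alpha chains. The smallest p there belonged to Kitl, the ligand of the Kit receptor, at -0.13 ± 0.06 (log2, SE) with an adjusted p of 0.389 (limma).

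Among signalling proteins close to the receptors 2 of 29 fell and none rose, with a median log2 difference of -0.013. Src, a tyrosine kinase that is recruited to the activated CSF-1 receptor, read 8.001, 7.83 and 7.85 (log2) in IL-33 replicates 1, 2 and 3, against 8.61, 8.52 and 8.64 in PBS replicates 1, 2 and 3. Its groups did not overlap, and it was 1.63-fold lower (limma, adjusted p 0.0133). Syk, a kinase of immunoreceptor signalling that also acts below integrins in macrophages, was 1.39-fold lower (limma, adjusted p 0.0335). Of 12 STAT5 target genes 1 rose, the D-type cyclin gene Ccnd2, which was 1.46-fold higher with an adjusted p of 0.0183 (limma), and the median was -0.027. Ccnd2 was also the single gene to rise among 18 CSF-1 immediate response and growth genes, where the MAP kinase phosphatase gene Dusp1 fell, being 1.57-fold lower (limma, adjusted p 0.0246), and the median was -0.042. Of 10 genes known to respond to GM-CSF in myeloid cells 1 fell, the fatty acid carrier Fabp4, which was 1.26-fold lower (limma, adjusted p 0.0485). The median of that list was -0.069, and 3 of its 10 genes were above 0. Syk, Ccnd2 and Fabp4 were lost whichever array was left out, with highest adjusted p of 0.158, 0.104 and 0.210 (limma), Dusp1 in 5 and Src in 4 of the 6 such fits, and all 5 genes over all probe sets.

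No gene passed among 15 transcription factors of the receptor genes, 18 of the ligand genes, 12 proteins that bind AU-rich or stem-loop elements of mRNAs such as that of Csf2, and 5 genes of receptor and ligand shedding. The smallest p of each belonged to Irf8, a factor of monocyte commitment, Cebpd, a C/EBP factor, Arid5a, which stabilises cytokine mRNAs, and Rhbdf2, a cofactor of the sheddase ADAM17. Their log2 differences were 0.31, 0.31, 0.31 and 0.17, with adjusted p of 0.0551, 0.0986, 0.0901 and 0.191 (limma), in that order. The median log2 differences of these 4 lists were -0.022, -0.027, 0.042 and 0.11 in the same order. All 5 shedding genes were above 0. In the list of mRNA-binding proteins 7 of 12 were above 0, with log2 differences from -0.35 to 0.31. The groups did not overlap for 2, 5, 10 and 2 genes of these 4 lists, in the same order, against 20.3% of all genes. The share of all genes that passed as reported was 0.591%. With genes of a mean value below the median left out, 1, 2, 4 and 1 genes of these 4 lists passed, in the same order. The trended and robust prior variance gave the same 4 counts. In these 2 settings 6.85% and 4.51% of the genes tested passed.

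**Figure D4:**
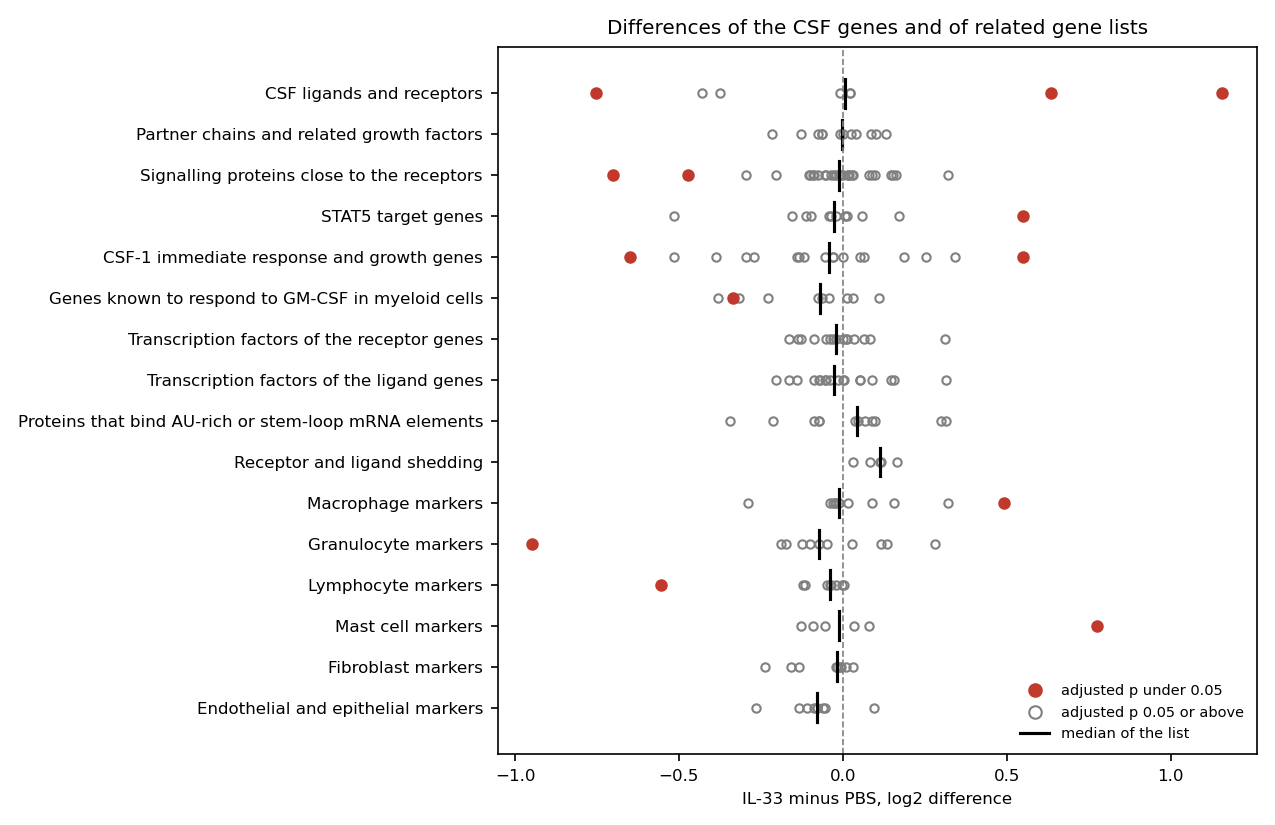
Log2 difference, IL-33 minus PBS (horizontal axis), of each gene (circles) in the CSF set and in the related lists (rows), with filled circles for an adjusted p under 0.05 and a bar at the list's median. The CSF genes run from -0.75 to 1.16, and no related pathway list holds a gene beyond -0.70 or 0.55.

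The macrophage markers had a median mean value of 11.6 (log2). The macrophage, granulocyte, lymphocyte and mast cell lists each held 1 gene that passed, where 0.591% of all genes passed. The summed log2 values of the 11 macrophage markers ran from 113.1 to 114.1 in IL-33 arrays and from 112.7 to 113.4 in PBS arrays. Only the Fc receptor gene Fcgr1 passed, being higher, a call lost whichever array was left out. The groups did not overlap for 7 of these 11 genes, against 20.3% of all genes, and 5 of the 11 differences were above 0. The G-CSF receptor is best known on granulocytes. The sums of the 11 granulocyte markers ran from 51.96 to 52.9 in IL-33 arrays and from 52.9 to 53.7 in PBS arrays. Of these the collagenase gene Mmp8 fell, with a log2 difference of -0.95, and no other passed. In the granulocyte list 4 of 11 genes were above 0. Its median mean value was 4.45 (log2), where the array medians were 5.31 to 5.36. The 6 mast cell markers ran from 24.4 to 24.6 in IL-33 arrays and from 23.4 to 24.2 in PBS arrays, with 1 that rose, the histamine-forming enzyme gene Hdc, at 0.77 (log2). Hdc had a mean value of 6.71, and the median mean value of its list was 3.76 (log2). The 9 lymphocyte markers ran from 48.5 to 48.8 in IL-33 arrays and from 49.01 to 50.09 in PBS arrays, with 1 that fell, the IL-7 receptor gene Il7r, at -0.56 (log2). Il7r had a mean value of 11.4, and the median mean value of its list was 4.61 (log2). Mmp8, Hdc and Il7r were each lost in 5 of the 6 fits without an array. The 10 fibroblast markers ran from 51.6 to 51.9 in IL-33 arrays and from 52.2 to 52.6 in PBS arrays. The ranges of the mast cell, lymphocyte and fibroblast sums did not overlap between the groups. In each of these 3 lists the groups stood apart for only 1 gene, Hdc in the mast cell and Il7r in the lymphocyte list. Of all genes, 20.3% stood apart. These sums therefore do not show that a list moved as a whole. The 9 endothelial and epithelial markers ran from 46.1 to 47.7 in IL-33 arrays and from 47.4 to 48.01 in PBS arrays, and no marker of these last 2 lists passed. The part of other cells in the CSF results was not tested.

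The genes whose profiles over the 6 arrays lay closest to those of the 3 genes that passed were found by the Euclidean distance between log2 values after each gene's own mean was taken off, 5 for each. For Csf2 they were Slfn1, a schlafen family gene, the membrane protein gene Ms4a6b, Hdc, and Ifi214 and Ifi208, 2 interferon-inducible p200 genes, at distances of 0.47 to 0.51. All 5 were higher in IL-33 arrays, by 0.77 to 1.21 (log2). For Csf2rb2 they were Ifi27, an interferon-induced gene, the ubiquitin ligase gene Nedd4l, Src, the gelatinase gene Mmp9, and Tnfaip3, an inhibitor of NF-kB signalling, at distances of 0.19 to 0.24. Their log2 differences were -0.82 to -0.60, and Ifi27, Src and Mmp9 passed, while Nedd4l, at an adjusted p just above the threshold, and Tnfaip3, at 0.0523 (limma), did not. For Csf3r they were the immunoglobulin heavy chain gene Ighm, Psrc1, a microtubule-associated protein gene, the IL-1 family cytokine gene Il18, Rgs16, a regulator of G protein signalling, and Glipr2, at distances of 0.09 to 0.20. Their log2 differences were 0.65 to 0.71, and all but Il18, with an adjusted p of 0.0574 (limma), passed. The 6 points share arrays and normalization, and most of the likeness is the difference between the groups.

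**Figure D5:**
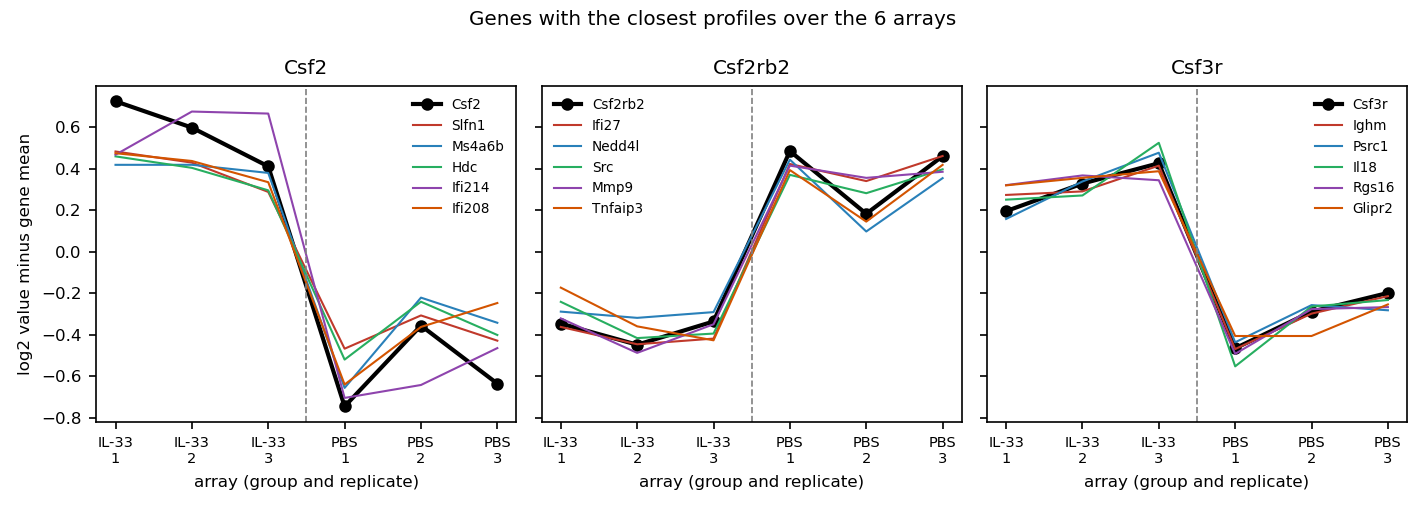
Log2 value minus the gene's mean (vertical axis) on each array (horizontal axis, IL-33 left of the dashed line, PBS right), for Csf2, Csf2rb2 and Csf3r (thick black) and the 5 genes nearest to each (thin lines); lines join arrays that have no order. Csf2rb2 and its neighbours are lowest in all IL-33 arrays, and Csf2 and Csf3r and theirs are highest there.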

How the data were processed

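Total RNA of Raw 264.7 cells was made into biotin-labelled cDNA with a whole-transcript kit and read on 6 arrays, per the labels' protocols. The deposited table holds log2 values, 1 per probe set and array, which the authors made with RMA, per the submitters' processing notes; no source used here gives its version or settings. No detection calls were used. RMA makes the distributions of arrays alike (medians 5.31 to 5.36), and arrays give no count depth, so their number limits the precision. No 2 arrays held identical values, and no label says that replicates were separate cultures, so the spread behind each p-value may be technical.

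Of 23521 probe sets with exactly 1 gene symbol in the platform annotation, the one with the highest mean stood for each of 22180 genes. limma 3.58.1 in R 4.3.3 (lmFit, eBayes, no covariates, no filter) gave IL-33 minus PBS differences, adjusted by Benjamini-Hochberg over all genes at a threshold of 0.05. The limma step was tested on simulated data. No build is named for the arrays, so no gene coordinates are given other than those of the RefSeq windows. No gene was called more or less expressed than another from the levels of their probe sets.

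The members, lists and tests were chosen with earlier results of these data known. Named were the 8 members, up to 3 genes of each pathway list that passed with the largest change (otherwise the 1 with the smallest p), up to 2 markers of each list that passed, and the 5 closest profiles of each member that passed. The settings tried besides were array weights, a prior variance both trended and robust, the replicate number as a block, all probe sets, the mean of a gene's probe sets, centring at the 75th percentile, repeated quantile normalization, 2 filters on dim genes and leaving out each array. Python 3.11.15 with matplotlib 3.10.9 drew the figures.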

Additional observations from a re-analysis of the deposited data

How the results depend on the processing

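All differences of Csf2, both probe sets, Csf2rb2, Csf2rb, Csf3 and Csf3r kept their direction in every alternative run. This was largely fixed in advance. The filters, the prior variance, the block and the fit over all probe sets leave the difference itself unchanged. The groups of these genes did not overlap, so leaving out 1 array could not turn a sign. The number of genes that passed was 131 as reported, 296 and 760 with genes at or above the 25th percentile and the median of mean values, 1000 with the trended and robust prior variance, 21 with the replicate number as a block and 17 over all non-control probe sets, and 15 to 83 without 1 array. The number of CSF genes that passed was 3 as reported, 5 above the median mean value and with the trended and robust prior, 0 over all probe sets, 0 with the block and 0 to 2 without 1 array. The cause was not tested. A fit without 1 array has fewer degrees of freedom, and the part of this in the lost calls was not tested either. Replicate numbers were not taken as pairs: same-numbered arrays had correlations of their deviations of 0.082, 0.088 and 0.022, and nothing states a shared culture or day. IL-33 replicates 1 and 2 did correlate best with the PBS replicate of their own number, and IL-33 replicate 3 did not. With the block, the differences of Csf2 (1.16), Csf2rb2 (-0.75) and Csf3r (0.63) did not pass, with adjusted p of 0.0927, 0.0691 and 0.0577 (limma), and the same held over all probe sets, with 0.0862, 0.120 and 0.169. Csf3 passed with both filters, with the trended and robust prior (-0.38 each, adjusted p 0.0346, 0.0118 and 0.000383, limma), with array weights (-0.38, 0.0435) and with centring (-0.37, 0.0457). Csf2rb (-0.43) passed with the median filter and the trended and robust prior, and the other Csf2 probe set (0.58) with that prior, at an adjusted p of 0.0340 (limma). Without 1 array, log2 differences ran from 1.07 to 1.27 for Csf2, from 0.49 to 0.76 for its other probe set, from -0.85 to -0.70 for Csf2rb2, from -0.52 to -0.38 for Csf2rb, from -0.42 to -0.34 for Csf3 and from 0.56 to 0.70 for Csf3r. They changed sign around 0 for Csf1 (-0.0027 to 0.069), Csf1r (-0.0022 to 0.039) and Csf2ra (-0.037 to 0.0086). Of 225 counts of list genes under alternatives, 138 equalled the reported count or stayed within 1.5 times it, and 87 did not. Lists with 0 calls as reported that stayed at 0 are among the 138, so this tally is no measure of stability. The lists of signalling proteins, STAT5 targets, CSF-1 response genes and GM-CSF response genes held 0 calls with the block and over all probe sets, and the GM-CSF list also with the further quantile normalization.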
